A study of Mus musculus with 2 samples.

Results

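The genes described here encode the nuclear subunits of the respiratory chain and of ATP synthase, the machinery of oxidative phosphorylation. They were chosen by the gene name printed for each non-control probe: names of the Nduf, Sdh, Uqcr, Cox4 to Cox8 and Atp5 families, and Cyc1 and Cycs. The rule found 83 genes on 129 probes, out of 37074 gene names and 56605 probes on the array. Of the 83 genes, 79 had a probe well above background on both arrays, 1 on only 1 array (Cox6a2), and 3 on neither (Cox7b2, Cox8b and Cox8c). The 80 genes measured on at least 1 array are counted below.

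The study compared total RNA from 2 mouse brain samples on single-colour Agilent arrays, 1 labelled neurosphere and 1 labelled VZ/SVZ (ventricular and subventricular zone, the wall of the brain's ventricles where adult neural stem cells lie). Neurospheres are floating clusters of cells grown from neural stem and progenitor cells. Both samples share strain (C57BL/6), tissue (brain), age (6 months) and genotype (Ecrg4hetero beta-gal positive), that is, heterozygous at Ecrg4 and positive for the reporter enzyme beta-galactosidase. The growth protocol in the labels places the cells of both samples in DMEM/F12 with bFGF, EGF and heparin. No wild-type or beta-galactosidase-negative sample was analysed here, and the promoter that drives the reporter, how positive cells were picked, their time in culture and any pooling of animals are not stated in the labels. Each group has 1 array and no replicate, so there is no test and no p-value. Each difference below compares these 2 libraries, not the conditions.

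Oxidative phosphorylation takes place in the inner mitochondrial membrane. Complexes I and II feed electrons from NADH and succinate into the chain, complex III passes them to cytochrome c, and complex IV (cytochrome c oxidase) hands them to oxygen. The proton gradient that complexes I, III and IV build drives ATP synthase, complex V. Most subunits are encoded in the nucleus, whereas a few at the catalytic and proton-pumping centre of complexes I, III, IV and V are encoded in the mitochondrion's own DNA. Complex II is built from nuclear genes alone.

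The nuclear subunits were lower in the VZ/SVZ library as a body. A level is the log2 processed signal minus the array's 75th percentile, a difference is the VZ/SVZ level minus the neurosphere level, and the ± is the scanner software's technical error of that difference, which holds no biological variation. Signals in arbitrary units are printed as scanned, unscaled, so their ratio departs slightly from the difference. Of 80 genes, 76 (95.0%) were below 0 and 4 above, where 48.4% of all 26470 genes measured were below 0 and 51.5% above. In RNA of a whole sample, fewer cells of a type and less RNA per cell cannot be told apart. The median difference was -0.80, or 1.74-fold lower in VZ/SVZ. The median over all genes measured was 0.04. For 74 of the genes the distance below 0 was more than 2 technical errors, and for 2 the distance above 0 was. These counts speak of measurement error alone, and no such count over all genes is set beside them. Under other ways of processing the arrays the sign turned in 6 genes, Atp5g1, Atp5j2, Ndufa11, Ndufa4l2, Ndufs3 and Ndufv3.

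The differences were even rather than large. At 1.5-fold, 65 of 80 subunits (81.3%) were higher in the neurosphere library, against 22.8% of all genes measured, and 1 was higher in VZ/SVZ, against 29.7%. At 2-fold, 12 of 80 (15.0%) were higher in the neurosphere library, near the 11.1% of all genes, and 1 was higher in VZ/SVZ, against 18.7%. The differences lay close together, with quartiles of -0.93 and -0.62 where those of all genes measured were -0.53 and 0.74. Subunit genes had high levels, and genes with high levels in general leaned the same way. Among the 2764 genes at or above the lower quartile of the subunits' level (3.39), a set added after the data were seen, the median was -0.38, with 69.4% of genes below 0 and 30.6% above. In that set 33.0% of genes were 1.5-fold higher in the neurosphere library and 13.7% in VZ/SVZ, and at 2-fold the shares were 10.6% and 8.18%. The 60 subunits within it had a median of -0.81.

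**Figure D1:**
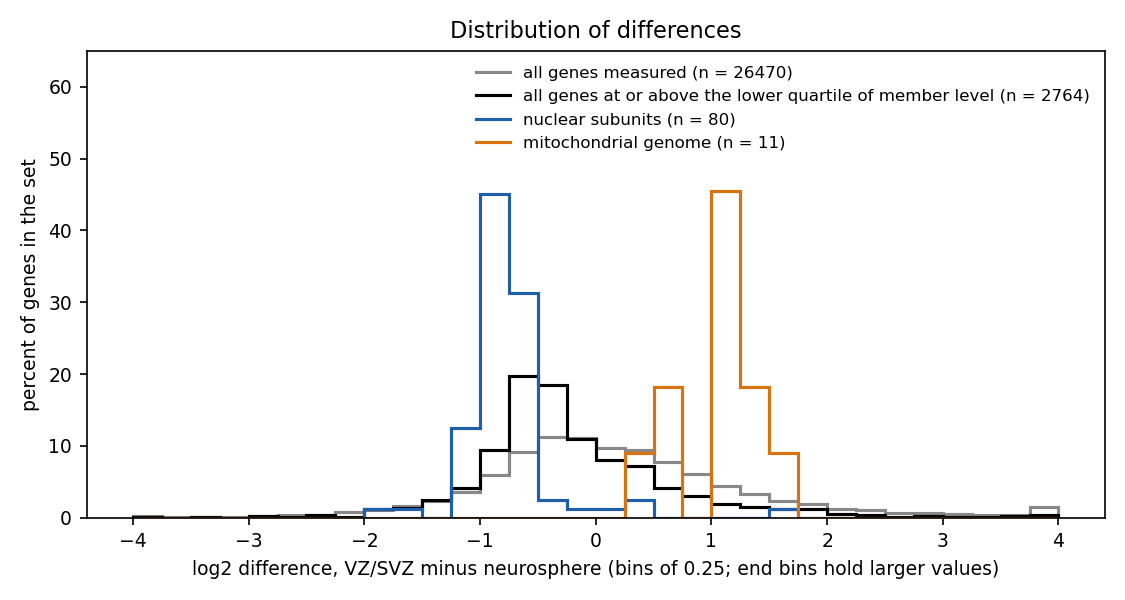
Percent of genes (vertical axis) in bins of the log2 difference, VZ/SVZ minus neurosphere (horizontal axis), for all 26470 genes measured (grey), the 2764 genes at high level (black), the 80 nuclear subunits (blue) and the 11 mitochondrially encoded genes (orange). The blue peak lies below 0 around the median of -0.80, the orange values all lie above 0, and the black curve lies between the blue and the grey.

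Complex I, the NADH dehydrogenase, held the largest share of the subunits that passed 2-fold, and also the most genes of any complex. All 35 of its measured nuclear genes were below 0, with a median of -0.81, although Ndufa11 went to 0.02 under quantile normalisation and Ndufs3 and Ndufv3 to 0.18 and 0.36 with the median over their probes. At 2-fold 9 of the 35 (25.7%) were higher in the neurosphere library, against 11.1% of all genes measured. At 1.5-fold 30 of the 35 (85.7%) were, against 22.8%. The core subunits, which carry the flavin and the iron-sulfur clusters of the electron path, had a median of -0.91 over 7 genes. The 28 accessory subunits, which surround and stabilise the core, had a median of -0.81 and ran from -1.79 to -0.22.

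Among the core subunits, Ndufs8, an iron-sulfur subunit, read 3432 in neurosphere and 1698 in VZ/SVZ (-1.11 ± 0.20). Ndufv2, part of the NADH-binding module, read 1706 and 908 and lay just past 2-fold, at 2.01-fold. Ndufs3, in the arm that leads to the quinone site, was the core subunit nearest to 0, at -0.55. On their brightest probes all 7 core subunits were higher in the neurosphere library, by unequal amounts.

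Ndufc2, an accessory subunit of the membrane arm, showed the widest difference of all subunits below 0. Its signal was 8443 in neurosphere and 2610 in VZ/SVZ, a difference of -1.79 ± 0.20. Ndufv3, a small subunit beside the NADH-binding site, read 2876 and 1321 (-1.22), although its other probe went the opposite way. Ndufb8, a membrane-arm subunit often used as a marker of assembled complex I, read 942 and 438 (-1.20). The remaining accessory subunits past 2-fold were Ndufs5 (-1.10), Ndufb3 (-1.07) and Ndufc1 (-1.06). Ndufa11, a membrane subunit, was the accessory subunit nearest to 0, with -0.22 ± 0.20, close to its technical error.

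Complex II oxidises succinate and belongs to the tricarboxylic acid cycle as well as to the chain. Its 4 genes lay close together, from -0.97 to -0.59, with a median of -0.75. All 4 passed 1.5-fold on the neurosphere side and none passed 2-fold, against 22.8% and 11.1% of all genes. The catalytic flavoprotein Sdha was at -0.83 and the iron-sulfur subunit Sdhb at -0.68. The membrane anchors were Sdhd at -0.97 and Sdhc at -0.59.

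Complex III, the cytochrome bc1 complex, was the evenest of the larger complexes. Its 9 genes ran from -0.94 to -0.57 around a median of -0.68. Past 1.5-fold were 8 of them (88.9%) and none was past 2-fold, against 22.8% and 11.1% of all genes in that direction. Uqcr10, a small supernumerary subunit, was at -0.94, the core protein Uqcrc1 at -0.90 and the small subunit Uqcr11 at -0.79. The redox subunits were Uqcrfs1, the Rieske iron-sulfur protein, at -0.79 and Cyc1, cytochrome c1, at -0.57, the member of the complex nearest to 0. Uqcrh, the hinge protein that contacts cytochrome c1, was at -0.61. Cycs, the mobile carrier between complexes III and IV and a trigger of apoptosis when released, was at -0.93.

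Complex IV held the subunits furthest apart. Several of its nuclear subunits exist as isoforms that replace each other between tissues. Over 14 measured genes the median was -0.80 and the range -1.19 to 1.74. The 10 genes that are not a tissue-restricted isoform were all below 0, from -1.19 to -0.55, with a median of -0.86. Cox6b1, a subunit on the intermembrane side, was the lowest, with 1747 in neurosphere and 816 in VZ/SVZ (-1.19). Cox7c (-0.99) and Cox7b (-0.96) followed, and Cox5a was nearest to 0 among these genes, at -0.55. Cox7c was the subunit just short of 2-fold.

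The isoform pairs of complex IV divided. Cox6b1 is the isoform of most tissues and Cox6b2 the isoform described in testis. Cox6b2 read 1051 in neurosphere and 3740 in VZ/SVZ, a difference of 1.74 ± 0.20 and the only 2-fold difference towards VZ/SVZ among the 80 genes. Each gene has 1 probe here, and the starts of the pair are printed below to show that the probes read different letters. The coordinates, on mm9, cover each whole probe of 60 bases, and its first 30 bases are printed. No letter is capitalised because none was compared.
Cox6b1, chr7:31409575-31411071: aggagtcaggatggctgaagacatcaagac
Cox6b2, chr7:4703488-4703547: ggaactttcccgggcaaaatatgaccttgc
Cox4i1, chr8:123197924-123197983: aagcgaatgctggacatgaaggccaacccc
Cox4i2, chr2:152590612-152590671: aagtgaccaacgtcccacgtctgccgccag

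Cox4i1, the common form of a regulatory subunit, read 11969 and 6799 (-0.91), while Cox4i2, the form known from lung and induced by low oxygen, read 301.6 and 411.1 (0.35 ± 0.20). Cox6a1 read 16490 and 12007 (-0.55). Cox6a2, the heart and skeletal muscle form, read 8.54 in neurosphere and was not well above background in VZ/SVZ, so it was at least 1.54-fold lower there, a bound within 2 technical errors of 0. Cox7a2 read 5041 and 3133 (-0.78), and the muscle form Cox7a1 read 140.2 and 96.0 (-0.64). Cox8a, the common form of that subunit, was at -0.83, and its muscle and testis forms Cox8b and Cox8c were below background on both arrays, as was Cox7b2, the testis form of Cox7b. The common form was thus lower in VZ/SVZ in every set, whereas the 4 measured restricted forms of complex IV lay on both sides of 0.

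Ndufa4, first assigned to complex I and now placed in complex IV, read 5646 and 3269 (-0.88). Its paralogue Ndufa4l2, a low-oxygen-induced gene, was near background at 8.11 and 10.3, a difference of 0.25 ± 0.36 that its technical error covers. Of muscle markers, Ckm, Mb and Myl1 were below background on both arrays. The muscle marker list as a whole had 3 of 6 genes measured, 1 of them 2-fold higher in VZ/SVZ, with a summed signal of 62.6 in neurosphere and 135.7 in VZ/SVZ.

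**Figure D2:**
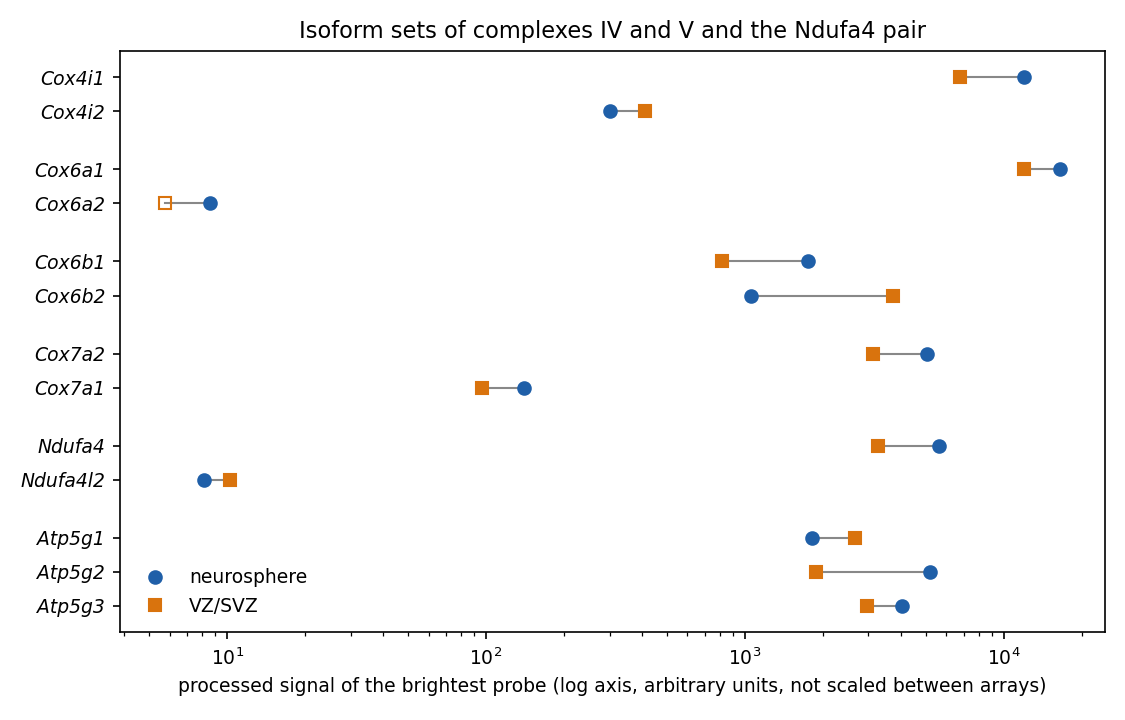
Processed signal of the brightest probe (horizontal log axis, arbitrary units, not scaled between arrays) of each isoform set, 1 row per gene, in neurosphere (blue circles) and VZ/SVZ (orange squares); an open symbol is not well above background. The orange square is to the right of the blue circle in Cox6b2, Cox4i2, Ndufa4l2 and Atp5g1 and to its left in the other 9 genes drawn.

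Complex V, ATP synthase, had a median of -0.80 over 16 genes, 15 of them below 0. With the median over their probes Atp5j2 turned to 0.88 and Atp5g1 to -1.01. The 5 genes of the F1 head, which makes ATP, had a median of -0.79, from -0.98 for Atp5c1 (the gamma shaft) to -0.63 for Atp5b (the catalytic beta subunit). The 4 genes of the peripheral stalk, which holds the head still, had a median of -0.82. Among them Atp5j (coupling factor 6) read 1640 and 800 (-1.13), past 2-fold. The 3 genes for other parts of the membrane sector, Atp5k, Atp5j2 and Atp5l, had a median of -0.74. Atp5s, coupling factor B, was at -0.82 and carries the current symbol Dmac2l. Its signals were dim, and its value was -0.25 with normexp and -1.20 under quantile normalisation. Between the head, the stalk and the other membrane genes the medians lay close together.

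The c ring turns as protons pass and is made of 1 mature protein encoded by 3 nuclear genes, which differ in the leader that carries it into mitochondria. Atp5g2 has the smallest technical error of any subunit, because its probe was spotted 10 times on each array. Its neurosphere spots ran from 4960 to 5473 and its VZ/SVZ spots from 1742 to 2041, without overlap. The difference was -1.55 ± 0.06, and on the log2 scale the spots had an SD of 0.05 in neurosphere and 0.07 in VZ/SVZ. Spots of 1 array share 1 RNA sample, so this spread is technical. It leaves out the scaling between arrays, and under quantile normalisation the Atp5g2 difference was -1.28. Atp5g3 read 4052 and 2953 (-0.55). Atp5g1 had 3 probes that went separate ways. The brightest read 1813 in neurosphere and 2666 in VZ/SVZ (0.46 ± 0.20), and the others read 1397 and 742 (-1.01) and 618 and 311 (-1.08). With either of these, Atp5g1 would lie 2-fold on the neurosphere side with Atp5g2. The 3 probe starts are printed because the sign of the gene turns on which of them is read. Both probes below 0 matched a RefSeq transcript of Atp5g1 by accession, and the brightest, named Atp5g1 in the scanner files, did not.
Atp5g1 brightest, chr11:95930317-95930376: tttcaattattaaaagctttaagggctggc
Atp5g1 middle, chr11:95934924-95934983: ccgacgggaattccagaccagtgtcatttc
Atp5g1 dimmest, chr11:95934315-95934374: tgccagtcctggtgctggagtctactgagc

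**Figure D3:**
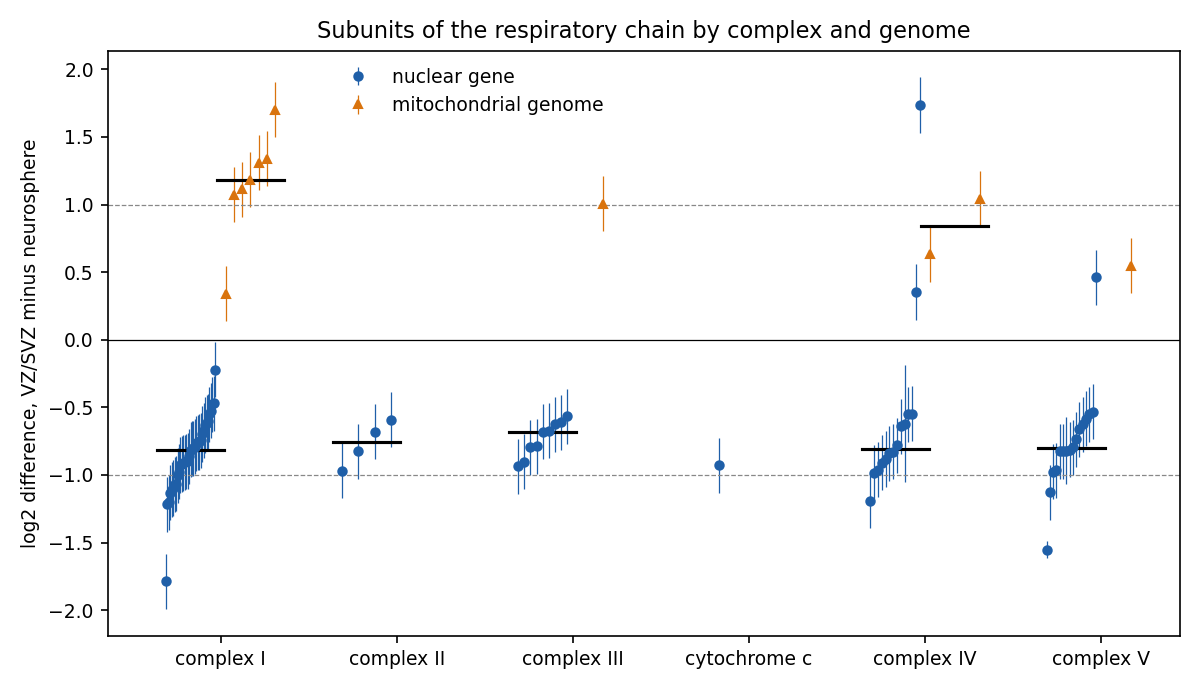
Log2 difference, VZ/SVZ minus neurosphere (vertical axis), of each measured nuclear subunit (blue circles) and mitochondrially encoded subunit (orange triangles), by complex; thin bars are the technical error, thick lines the medians of sets with more than 1 gene, and dashed lines 2-fold. Nuclear genes lie below 0 except Cox6b2, Cox4i2 and Atp5g1, and mitochondrial ones above 0 (Ndufa4l2, in no complex here, is not drawn).

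Several genes had more than 1 probe, which checks how far a value rests on 1 sequence. Of 30 such subunits, 21 had all bright probes below 0 and 9 had probes on both sides. In 8 of those 9 the brightest probe was below 0 and a dimmer one above. Atp5j2 is an example, with 4616 and 2956 on its bright probe (-0.74) and 12.3 and 74.1 on its dim one (2.50). Ndufa10 had 2321 and 1317 on the brightest (-0.91) and 7.26 and 27.1 on the dimmest (1.80), and its remaining probe was at -0.85. Ndufs3 had -0.55 on the bright probe and 0.91 on the dim one. The dim probe in each of these 3 genes has no RefSeq match, and which transcript it reads was not tested.

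Ndufv3 was the only subunit with probes opposed by 2-fold in both directions. Its RefSeq-matched probe was at -1.22, and the other read 32.5 and 132.1, a difference of 1.93 ± 0.21. Taken over all 115 probes of the subunits that were bright on both arrays, 104 lay below 0 and 11 above, and their median was -0.78. Over all 32392 probes bright on both arrays the median was -0.08, and no count of these below 0 is set beside the subunit count. The direction of the set was the same when counted by probe as when counted by gene, but the brightest probes enter both counts. The Ndufv3 probe starts follow, for the reason given for Atp5g1.
Ndufv3 brightest, chr17:31668209-31668268: ggtagaccccgatgttggttcccatgaatc
Ndufv3 dimmer, chr17:31663758-31663817: aagaaaagctattgccactccctccgtcct

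**Figure D4:**
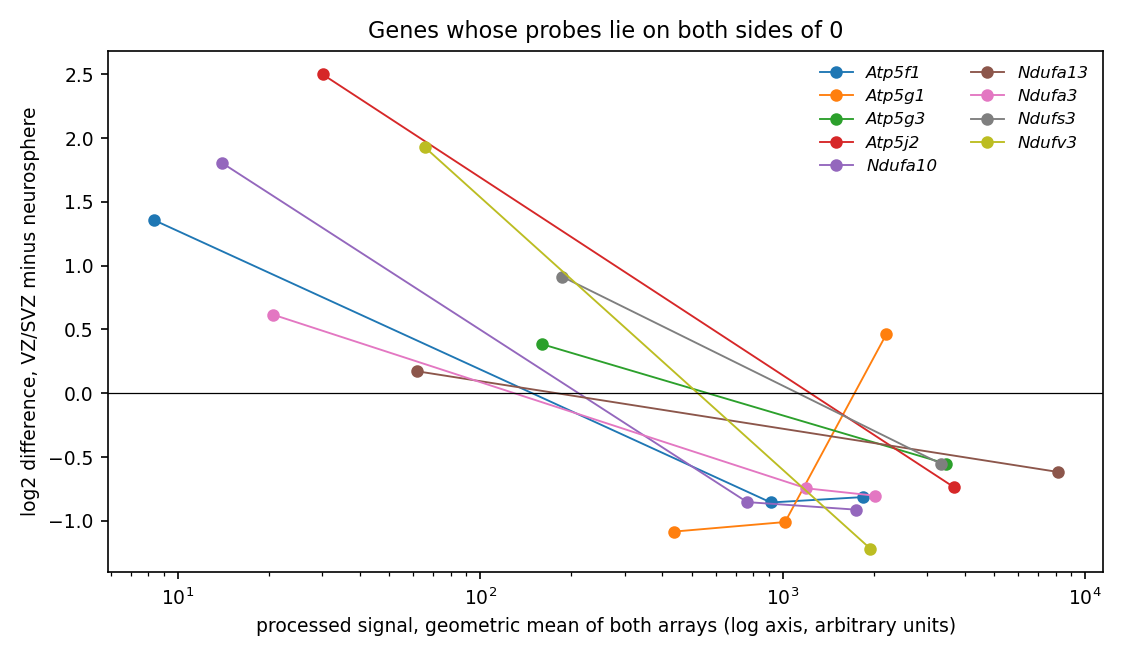
Log2 difference, VZ/SVZ minus neurosphere (vertical axis), against the geometric mean of the processed signal on both arrays (horizontal log axis, arbitrary units), for each probe of the 9 genes with probes on both sides of 0; lines join probes of 1 gene. In 8 genes the point furthest right is below 0, and in Atp5g1 it is above.

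The subunits encoded in mitochondrial DNA, which are not among the 83 genes, went the other way. Of 13 such genes listed, 11 were found by name on the array and all 11 stood above 0, at a median of 1.07, or 2.10-fold towards VZ/SVZ. At 2-fold 8 of 11 were higher in VZ/SVZ, where 18.7% of all genes were. ND2 read 2886 in neurosphere and 10020 in VZ/SVZ (1.70 ± 0.20), and ND4 read 19270 and 52074 (1.34). Both are proton-pumping subunits of complex I. CYTB, the cytochrome b of complex III, read 8845 and 18965 (1.01), and COX1, the catalytic subunit of complex IV, read 36130 and 59838 (0.63). ATP8, of complex V, was at 0.55. Cox6b2 apart, every nuclear subunit lay below 10 of these 11 values.

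Nuclear and mitochondrial partners of 1 complex thus stood apart in these libraries. In complex I the medians were -0.81 over 35 nuclear and 1.18 over 7 mitochondrial genes, 1.995 apart on the log2 scale. The gap was 1.69 in complex III, 1.64 in complex IV and 1.35 in complex V, the first and last with 1 mitochondrial gene each. Over all, the mitochondrial median was 1.87 above the nuclear one. The probes for mitochondrial genes that carry this contrast are printed whole, 60 bases each, with mm9 coordinates on the mitochondrial genome and no capitals.
ND2, chrM:4670-4729: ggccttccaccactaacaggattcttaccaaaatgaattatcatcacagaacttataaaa
ND4, chrM:11370-11429: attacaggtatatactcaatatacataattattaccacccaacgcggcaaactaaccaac
CYTB, chrM:15099-15158: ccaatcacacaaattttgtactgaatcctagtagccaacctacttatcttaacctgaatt
COX1, chrM:6203-6262: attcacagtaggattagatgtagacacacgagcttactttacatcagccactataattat

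By their coordinates or names 17 probes matched the mitochondrial genome, 6 of them not named after a mitochondrial gene, and all 17 were above 0, from 0.34 to 1.70. The lowest, named ND3, is placed by the scanner file on chromosome 1 (chr1:24619613-24619672) and not on the mitochondrial genome. Near-identical nuclear copies of mitochondrial and subunit genes exist, so a probe may read more than its named gene.

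Genes that build or feed the chain showed the same lean, less evenly. Of 45 assembly factors, which fit subunits and cofactors together, 37 (82.2%) were below 0, against 48.4% of all genes. Their median was -0.53. At 2-fold 8 (17.8%) were higher in neurosphere, against 11.1% of all genes, and 1 (2.22%) in VZ/SVZ, against 18.7%. Lyrm7, an assembly factor of complex III, was at least 3.38-fold lower in VZ/SVZ, where it was not well above background. This value is from a probe without a RefSeq match, and the other Lyrm7 probe was at -0.89. Nubpl, an iron-sulfur assembly factor of complex I, read 310 and 106 (-1.65), and Cox14, an assembly factor of complex IV, read 3629 and 1286 (-1.59). Acad9, needed to assemble complex I, read 6648 and 22781 (1.68) on its brightest probe. That probe has no RefSeq match, and the other Acad9 probes reached down to -0.74.

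The 19 genes of the tricarboxylic acid cycle and of pyruvate dehydrogenase had a median of -0.64. Of these, 16 (84.2%) were below 0, against 48.4% of all genes. At 2-fold 3 (15.8%) were higher in neurosphere and 2 (10.5%) in VZ/SVZ, against 11.1% and 18.7% of all genes. Fumarase, Fh1, read 392 in neurosphere and 136 in VZ/SVZ (-1.62). Citrate synthase, Cs, was at -1.19. The list holds 4 kinases that switch pyruvate dehydrogenase off, and they did not share a direction. Pdk4 read 8.85 and 78.4 (3.05), and Pdk2 read 30.6 and 125.1 (1.94). Pdk1 was at 0.25 and Pdk3 at -0.79.

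Regulators of mitochondrial gene expression differed little as a list. Over 15 genes the median was -0.22. At 2-fold none was higher in VZ/SVZ, against 18.7% of all genes, and 1 (6.67%) was higher in neurosphere, against 11.1%. That gene was Ppargc1a, the coactivator PGC-1alpha that drives mitochondrial biogenesis, with 143 in neurosphere and 53.1 in VZ/SVZ (-1.52). Tfb1m, a methyltransferase of mitochondrial ribosomal RNA, was at -0.92 and Ppargc1b, a relative of Ppargc1a, at 0.61. Gabpb1, a subunit of an ETS-family factor, was at -0.53, with another probe at 1.94. Nrf1, a factor named for its sites in respiratory genes, was at 0.08.

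Chain components whose names fall outside the rule had a median of -0.62 over 5 measured of 6 genes. Ndufab1, the acyl carrier protein of complex I, was at -0.68. The ATP synthase subunit named 2010107E04Rik in the scanner files, now Atp5mpl, was at -0.64. Atpif1, which blocks ATP synthase when it runs in reverse, was also at -0.62, and Usmg5, another ATP synthase subunit, was at -0.35. AA467197, a paralogue of Ndufa4, was below background in neurosphere, with 1.32, and read 46.0 in VZ/SVZ, so it was at least 8.30-fold higher there. The testis cytochrome c, Cyct, was below background on both arrays.

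Promoters of the subunits held some motifs more often than promoters in general. RefSeq's promoter table (GRCm38.p6) matched 67 of the 83 genes. Windows of 300 bases, from 250 before to 50 after the start of the gene, were searched on both strands, as were those of 27025 genes in the table. The core of the NRF1 site, GCATGCGC, was in 16.4% of the subunits and 3.05% of all genes. The ETS core, CCGGAAG, was in 23.9% and 9.93%, and the YY1 core, AAGATGGC, in 14.9% and 3.19%. The ERR core, TCAAGGTCA, was in 2.99% (2 of 67 genes) against 0.466%. CCAAT was in 46.3% against 41.1% and TATAAA in 10.4% against 15.7%. No test was made, and a match of letters is not a bound site.

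The 250 bases before the start are printed for Atp5g2, the subunit with the smallest technical error, for Cycs, and for Cox6b1 and Cox6b2, which differed in direction. Capitals mark matches to the motifs above on either strand, and overlapping matches run together. Atp5g2 and Cycs hold the NRF1 core. Cox6b1 holds the ETS core and CCAAT, and of the motifs searched in this stretch Cox6b2 holds CCAAT.
Atp5g2, chr15:102671048-102671297, minus strand: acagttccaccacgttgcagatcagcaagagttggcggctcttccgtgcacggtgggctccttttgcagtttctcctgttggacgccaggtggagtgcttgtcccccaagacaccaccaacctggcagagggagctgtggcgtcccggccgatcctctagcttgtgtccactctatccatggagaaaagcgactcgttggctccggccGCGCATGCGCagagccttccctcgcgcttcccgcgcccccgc
Cycs, chr6:50566570-50566819, minus strand: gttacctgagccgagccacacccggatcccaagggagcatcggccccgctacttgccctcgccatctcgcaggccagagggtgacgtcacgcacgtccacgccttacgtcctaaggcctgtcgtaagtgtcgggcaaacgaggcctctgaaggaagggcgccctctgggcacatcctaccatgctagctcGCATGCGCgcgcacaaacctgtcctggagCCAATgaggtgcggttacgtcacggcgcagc
Cox6b1, chr7:30626115-30626364, minus strand: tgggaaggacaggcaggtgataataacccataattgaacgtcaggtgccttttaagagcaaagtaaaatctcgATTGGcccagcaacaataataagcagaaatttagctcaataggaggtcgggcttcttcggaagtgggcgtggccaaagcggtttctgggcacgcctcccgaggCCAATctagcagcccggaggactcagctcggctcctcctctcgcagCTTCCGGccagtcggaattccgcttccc
Cox6b2, chr7:4753095-4753344, minus strand: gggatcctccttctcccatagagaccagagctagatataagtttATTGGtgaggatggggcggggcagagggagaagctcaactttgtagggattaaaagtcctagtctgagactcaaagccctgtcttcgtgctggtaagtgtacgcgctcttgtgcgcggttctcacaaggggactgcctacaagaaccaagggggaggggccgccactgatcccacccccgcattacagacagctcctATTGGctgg

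Marker genes of cell types and of cell division also differed between the libraries. For comparison, 18.7% of all genes measured were 2-fold higher in VZ/SVZ and 11.1% in neurosphere. All 6 mitosis genes were 2-fold higher in neurosphere, with a median of -2.33 and summed signals of 4908 in neurosphere and 983 in VZ/SVZ. Of 9 neural stem and progenitor markers 4 were 2-fold higher in neurosphere and 1 in VZ/SVZ, with summed signals of 66368 and 36252. Fabp7 and Vim made up most of both sums, whereas Slc1a3 read 3837 and 274 and Nes 2294 and 698. Sox2 (-1.28) and Msi1 (-0.86) were also below 0. Gfap (0.92), Hes5 (0.70) and Prom1 (1.03) went the other way, as did another probe of Slc1a3 (0.74). All 6 fibroblast markers were 2-fold higher in VZ/SVZ, with summed signals of 42.5 and 10929. At 2-fold 4 of 6 endothelial markers were higher in VZ/SVZ and 1, Flt1, in neurosphere, with summed signals of 208 and 695. Of 6 mural markers 5 were higher in VZ/SVZ, but their summed signals of 6793 and 7399 rested mostly on the other one, Acta2. The brightest Acta2 probe was at -0.33, and another was at 4.31. In contrast, 4 of 6 ependymal markers were higher in neurosphere. Astrocyte markers split at 2-fold, with 3 of 6 higher in VZ/SVZ and 2 in neurosphere. Their summed signals were 1551 in neurosphere and 5565 in VZ/SVZ. Among 5 measured oligodendrocyte markers, 1 was 2-fold higher in neurosphere and none in VZ/SVZ. Of the microglia and macrophage list Cx3cr1, P2ry12, C1qa and Tyrobp were below background on both arrays. Itgam read 13804 and 16835 on its brightest probe (0.19), and its other probe was at -0.66. Of the neuronal list Rbfox3 and Slc17a7 were below background on both arrays. Among its 4 measured genes 2, Nefm and Syt1, were 2-fold higher in VZ/SVZ. Snap25 read 5391 and 5421 on its brightest probe, and its other probes were at -0.45 and 2.49. The part of these differences in the subunit result was not tested.

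**Figure D5:**
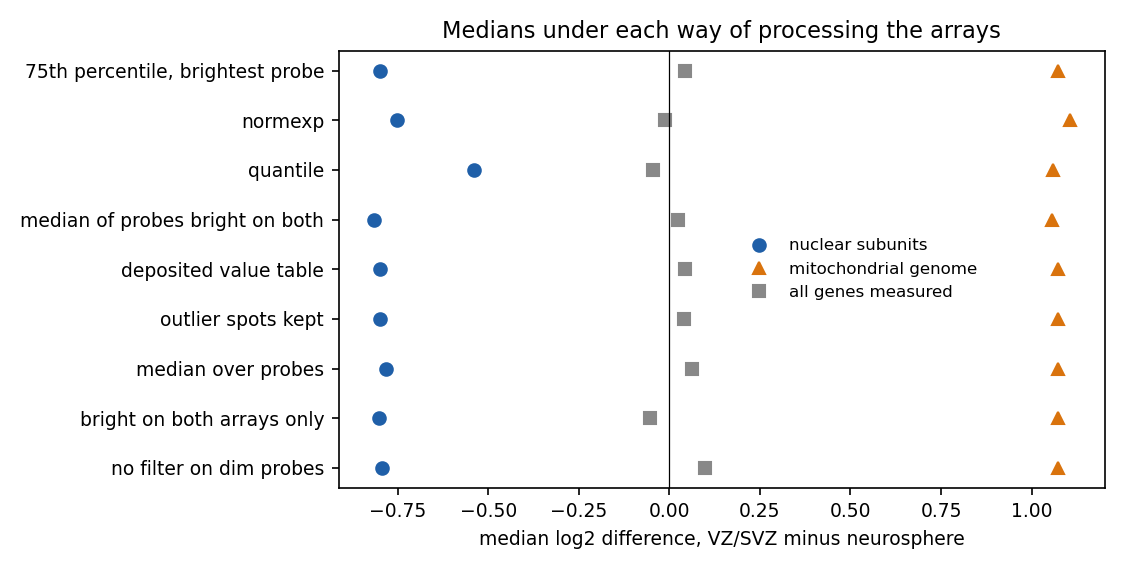
Median log2 difference, VZ/SVZ minus neurosphere (horizontal axis), of the nuclear subunits (blue circles), the mitochondrially encoded genes (orange triangles) and all genes measured (grey squares), under each way of processing the arrays (rows). The nuclear medians stay below 0, between -0.82 and -0.54, and the mitochondrial ones between 1.06 and 1.11.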

How the data were processed

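Cy3-labelled cRNA, made from 0.5 ug RNA per the labels, was read on 1 array per group, both on 1 slide and in 1 scan. The authors deposited the intensity of each spot as written by Agilent Feature Extraction 11.5.1.1, per the file headers (the submitters' processing notes name 9.1), background-subtracted but unscaled between arrays. Their deposited value table held the same intensity on a linear scale (column medians 12.95 and 18.55, median ratio 1.00).

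Of 62976 spots per array, 3671 controls and the non-uniform or population outlier spots (79 in neurosphere, 142 in VZ/SVZ, none of a subunit) were dropped. None was saturated. Spots were averaged on the log2 scale and centred on the 75th percentile. The brightest probe stood for a gene, named as in the scanner files, if well above background on at least 1 array. A gene dim on 1 array got a bound from the lowest bright level there (-4.26 neurosphere, -4.16 VZ/SVZ). The precision is limited by 1 array a group, and the median technical error was 0.21.

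Genes named are those past 2-fold, isoform sets, the extremes and the member nearest 0 of each complex or list, genes with probes opposed by 2-fold, genes dim on both arrays, and a few chosen after their values were seen. Some genes that this rule names are not reported here. Members and lists were chosen with earlier results of these data known. Probe coordinates are from mm9, and exon or UTR positions were not assigned. Calculations, quantile normalisation included, used Python 3.11.15 and pandas 2.3.3, and normexp used limma 3.58.1 in R 4.3.3. They were tested on simulated data. The 8 alternatives were normexp with an offset of 50, quantile normalisation, centring on the median, the deposited table, outlier spots kept, the median over probes, probes bright on both arrays, and no filter.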

Additional observations from a re-analysis of the deposited data

How the results depend on the processing

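No paired analysis was possible because each group has 1 array, and no replicate could be left out. Under the 8 alternatives the count of subunits below 0 was 74 to 77, not always of the same genes, and all 11 mitochondrial genes stayed above 0. Quantile normalisation moved the sizes most. It left 4 subunits in place of 12 at 2-fold and 36 in place of 65 at 1.5-fold on the neurosphere side. Its medians were -0.54 over all subunits, -0.67 for the core and -0.55 for the accessory subunits of complex I, -0.50 for complex II, -0.54 for complex V and -0.36 for components outside the name rule. It put the mitochondrial median 1.60 above the nuclear one, and the nuclear median against all genes at -0.49 in place of -0.84. At 1.5-fold towards VZ/SVZ, 2 subunits in place of 1 were counted under quantile normalisation, with the median over probes and without a filter on dim probes. The sign turned in 7 values. With the median over probes, Ndufv3 went from -1.22 to 0.36, Atp5j2 from -0.74 to 0.88, Ndufs3 from -0.55 to 0.18 and Atp5g1 from 0.46 to -1.01. Ndufa11 went from -0.22 to 0.02 under quantile normalisation, and Ndufa4l2 from 0.25 to -0.28 there and to -0.02 with normexp. Of the values for 91 single genes, Ndufv3's apart, 644 moved by less than their technical error and 82 by more, 70 of them under quantile normalisation. The VZ/SVZ share of all 2-fold calls was 62.7%, but 53.7% with normexp and 51.8% with quantile normalisation. Signal over background limits Ndufa4l2, Cox6a2 and Atp5s. The causes of the other shifts were not tested.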
